A study of Homo sapiens with 12 samples.

Results

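The 52 genes described here act in mitosis and on the spindle. They were chosen by gene name, with earlier results of these data known, and all 52 were found among the 60106 genes that each deposited table counts. Their messenger RNA was measured by RNA sequencing in PC3 and VCaP, established human prostate cancer lines that both came from bone metastases. PC3 cells received 20 nM and VCaP cells 40 nM of either a non-targeting siRNA (NSI) or an siRNA against FOXA1 (siFOXA1), and RNA was taken 72 hours later from 3 libraries per group. FOXA1 is a forkhead transcription factor that opens chromatin for other factors, and the study's title asks what it does to splicing-related genes. No allele or other agent is labelled, and within a line the groups differed by the siRNA. PC3 grew in RPMI and was sequenced from polyadenylated RNA, and VCaP grew in DMEM and was sequenced from total RNA. The lines therefore differed in dose, medium, library kit and the use of strand in counting, none of which can be told apart from the line.

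Mitosis is driven by cyclin B bound to the kinase CDK1. The condensed chromosomes attach through their kinetochores to spindle microtubules, a checkpoint holds the anaphase-promoting complex back until every chromosome is attached, and the complex then destroys cyclin B and securin so that the sister chromatids part and the cell divides. Most of the genes involved are transcribed in the G2 phase and in mitosis and are silent in resting cells. Their promoters are known for CCAAT boxes, bound by NF-Y, and for a short element called the cell cycle genes homology region (CHR), bound through LIN54 by the DREAM complex in resting cells and by the MuvB complex with MYBL2 and FOXM1 in dividing ones.

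The PC3 libraries totalled 123140099 to 188226483 counts each, and the VCaP libraries 48187047 to 59839211. FOXA1 itself fell to 62.3% of NSI in PC3 and to 16.5% in VCaP (log2 fold changes −0.68 and −2.60). FOXA1 RNA was therefore reduced and not absent in both lines. Of 8 markers of luminal prostate cancer cells, 8 in VCaP and 4 in PC3 reached 1 CPM (counts scaled to a common library size), and 5 blood cell markers summed to at most 1.20 CPM in any library, with HBB at 0. The list of 5 fibroblast and endothelial markers was higher after knockdown in PC3: it summed to 24.1 to 28.1 CPM in NSI and 40.5 to 45.2 in siFOXA1, nearly all of it from the collagen genes COL1A1 (mean 20.9 and 31.5 CPM) and COL1A2 (3.57 and 10.6), with DCN at or near 0. In VCaP that list summed to 5.36 to 10.6 CPM in NSI and 2.47 to 6.72 in siFOXA1. The part of these markers in the results was not tested. Same-numbered PC3 libraries deviated from their group means together (correlations 0.41, 0.57 and 0.21 over 26478 genes). So did NSI replicate 1 with siFOXA1 replicate 3 (0.35) and NSI replicate 3 with siFOXA1 replicate 1 (0.18). Replicate 2 against the other numbers gave −0.54 to −0.28, so only that number stood apart as a pair. For PC3 the fit that adds the replicate number (the replicate block) is given where it changes a call. In VCaP the correlations of like numbers were 0.09, 0.04 and 0.35, and those of unlike numbers −0.25 to 0.22. Nothing in the labels says that replicates came from separate cultures, so the p-values measure the spread between these libraries, which may be technical.

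In some libraries the members stood apart by gene length or base composition. In replicate 2 of PC3, under both siRNAs, short members were high and long members low against the other replicates. Across the 52 members the rank correlation of that deviation with exon length was −0.75 in NSI and −0.76 in siFOXA1, against −0.24 and −0.24 across all genes tested. In VCaP, NSI replicate 3 was low in several AT-rich members. Its deviation had a rank correlation of 0.62 with exon GC content over the members and of 0.20 over all genes tested. With exon length the correlations were −0.32 and −0.10, and its lowest members, CENPE, CENPF and ASPM, are long (8615, 10343 and 10887 bases). NSI replicate 3 was not the only such library of VCaP. Over the members the correlation with GC content was −0.72 in NSI replicate 2 and 0.70 in siFOXA1 replicate 2. CENPE had the lowest exon GC content of the members, 35.3%, and read 43.4 CPM in NSI replicate 3 against 117 and 121 in the other NSI libraries of VCaP. These correlations are across genes that share a library and its depth, and they are a description. The log2 fold changes of the members had rank correlations with exon length of 0.36 in PC3 and 0.28 in VCaP. Over all genes tested these were 0.08 and −0.05. With exon GC content the members gave −0.21 in PC3 and −0.34 in VCaP, against −0.02 and −0.06 over all genes tested. The part of length and base composition in the results was not tested.

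**Figure D1:**
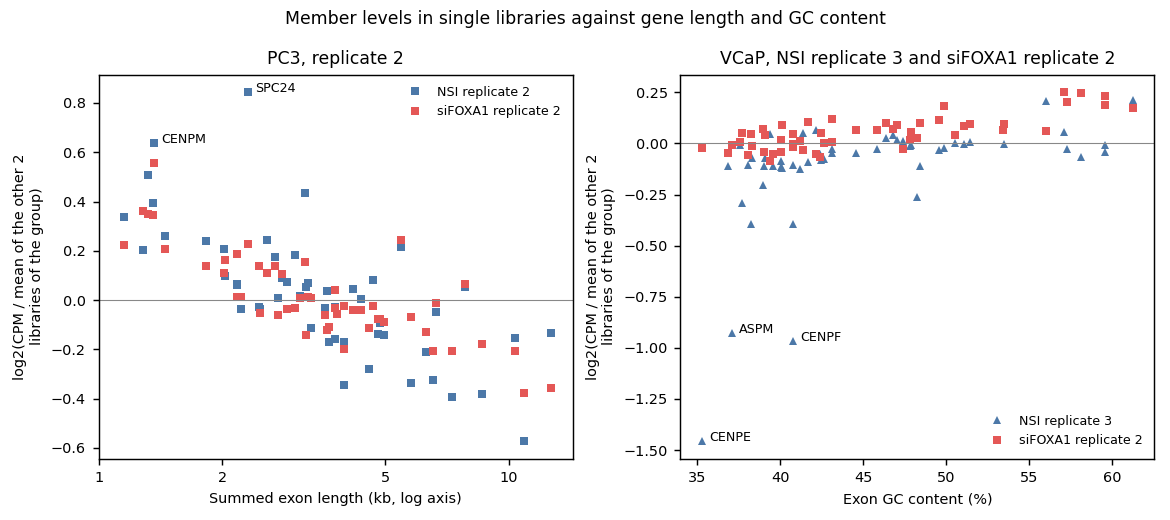
Level of the 52 members in single libraries, as log2 of CPM over the mean of the other 2 libraries of the group, against summed exon length in kb (left, log axis, PC3 replicate 2) and exon GC content in percent (right, VCaP NSI replicate 3 and siFOXA1 replicate 2). Points are genes. In PC3 replicate 2 the points slope down with length under both siRNAs (rank correlations −0.75 and −0.76), and in VCaP NSI replicate 3 CENPE, CENPF and ASPM lie furthest below 0.

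The mitotic genes were lower after FOXA1 knockdown in both lines. In PC3, 45 of the 52 members were called lower and 0 higher (edgeR quasi-likelihood test, Benjamini-Hochberg adjusted p under 0.05 over all genes tested), where 13.9% of the 26478 genes tested were called lower, 13.9% higher and 27.7% either way. In VCaP, 48 of the 52 were called lower and 0 higher, where 23.3% of the 22939 genes tested were called lower, 22.5% higher and 45.8% either way. Both lines called 42 members lower, against 6.48% of the 19282 genes tested in both. The median log2 fold change of the members was −0.68 in PC3 and −0.80 in VCaP, and that of all genes tested was −0.01 and 0.02. All 52 members passed the filter on low counts in both lines, with at least 390.5 counts in every PC3 library and at least 319.5 in every VCaP library. Fewer cells in mitosis and less of these RNAs per cell cannot be told apart in RNA from whole cultures.

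Summed over the members, the NSI libraries of PC3 held 2548, 2466 and 2489 CPM and the siFOXA1 libraries 1605, 1579 and 1615. The 2 groups did not overlap, and the siFOXA1 mean was 64.0% of the NSI mean. In VCaP the NSI libraries held 5717, 5625 and 5085 CPM and the siFOXA1 libraries 3835, 3435 and 2851, a siFOXA1 mean of 61.6% of NSI. The PC3 siFOXA1 libraries lay within a few percent of each other, whereas those of VCaP spread widely, with replicate 3 the lowest. That library had the lowest siFOXA1 value of all 52 members in VCaP. The share of counts from mitochondrial genes moved with the groups in VCaP: it was 3.28%, 3.29% and 3.02% in NSI and 4.04%, 4.16% and 4.69% in siFOXA1, highest in siFOXA1 replicate 3, and its part in the result was not tested. In PC3 it was 13.09% to 15.65% in NSI and 13.36% to 14.91% in siFOXA1. FOXA1 was not lowest there: it read 85.2, 73.6 and 83.0 CPM in VCaP siFOXA1 replicates 1, 2 and 3. Without that library the median log2 fold change of the members in VCaP was −0.67, and 47 were called lower.

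Member by member, all 3 siFOXA1 values lay below all 3 NSI values for 48 of 52 members in PC3, where 22.7% of the genes tested did so and 22.4% had all 3 above. In VCaP they did so for 47 of 52 members, where 28% of the genes tested did and 27.9% had all 3 above. The members called lower kept between 45.1% and 78.5% of their NSI level in PC3 and between 41.6% and 75.8% in VCaP. A fall below −1 on the log2 scale was called for 3 members in PC3 and 8 in VCaP. Falls of that size were called for 823 of the 26478 genes tested in PC3 and 1085 of the 22939 in VCaP. The other called members changed by less.

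**Figure D2:**
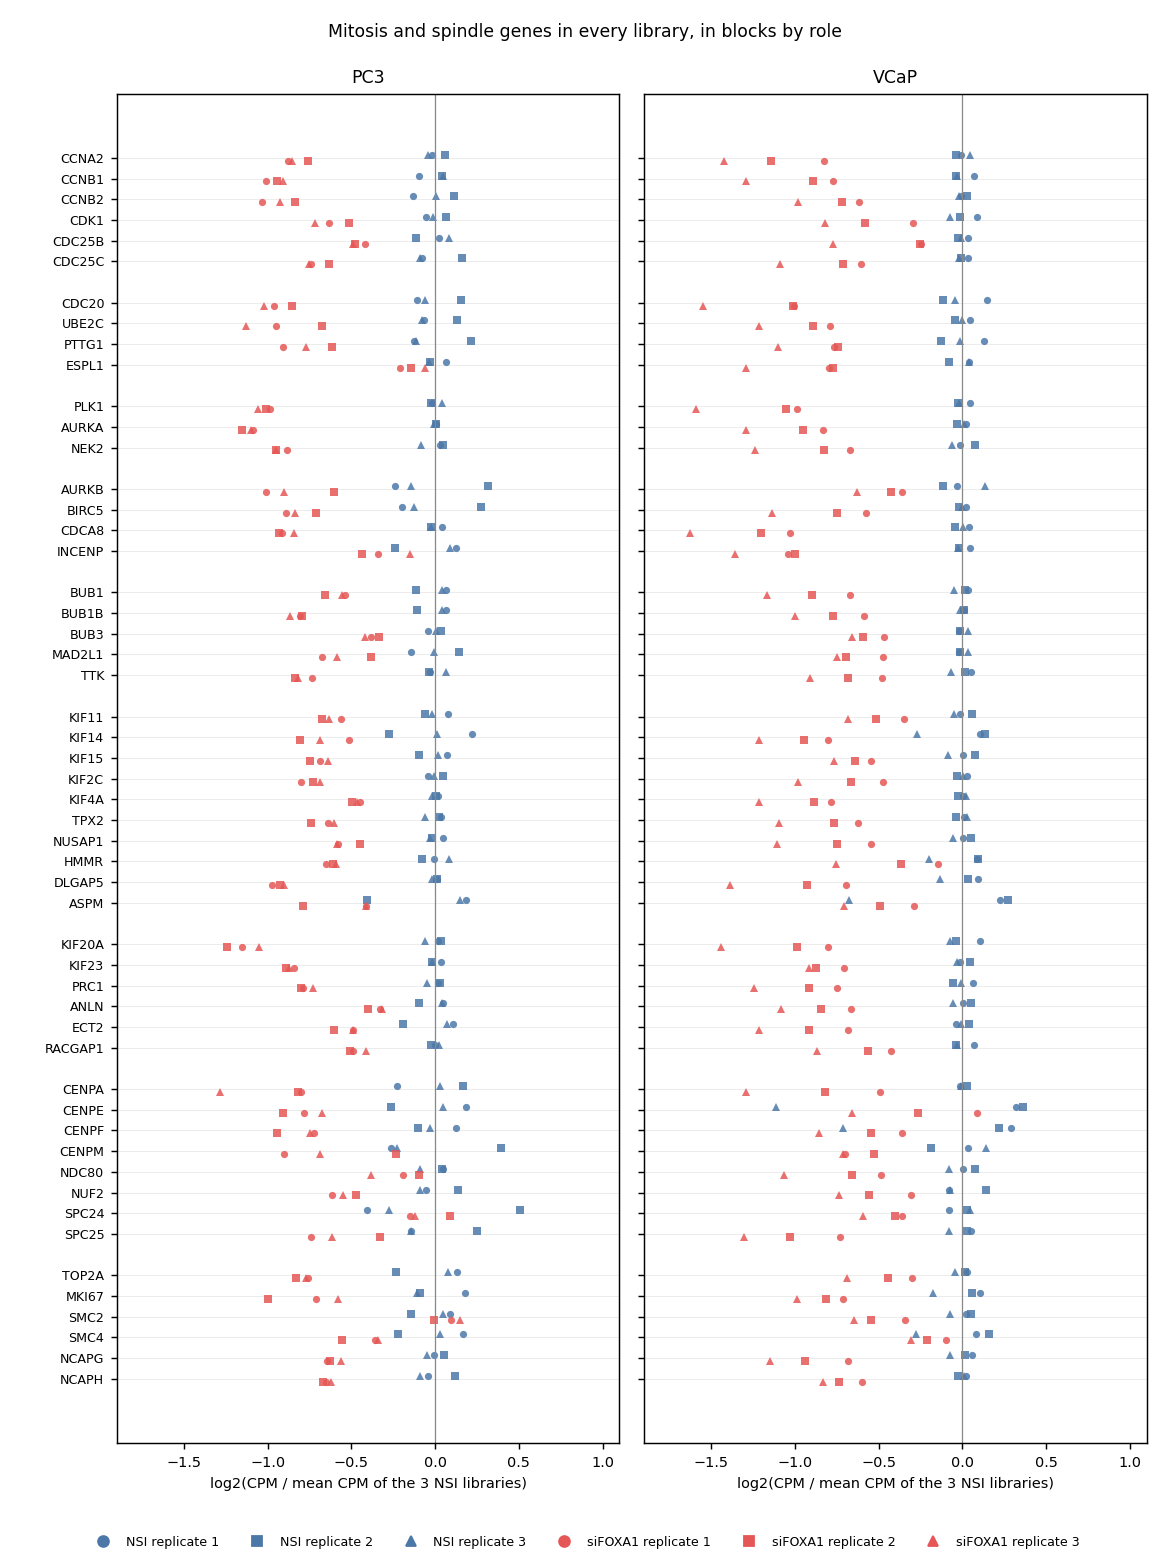
CPM of each of the 52 members in every library, as log2 over the mean of the 3 NSI libraries of the same line, PC3 left and VCaP right, with genes in blocks by role. Blue points are NSI and red points siFOXA1, and the symbol gives the replicate. The red points lie left of the blue ones for 48 members in PC3 and 47 in VCaP, and in VCaP siFOXA1 replicate 3 (red triangles) is the lowest siFOXA1 library for all 52.

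Promoter windows, from 250 bases before to 50 after the RefSeq transcription start on GRCh38.p14, were found for 44 of the 52 members (not for AURKA, BUB3, TTK, CENPM, TPX2, UBE2C, RACGAP1 and BIRC5), with the first listed window used for each gene. They were searched on both strands for the CHR letters TTTGAA and for the CCAAT box. The E2F search took any of the letters TTCCCGC, the letters TTGGCGC and the letters TTCGCGC. The forkhead search took any of the letters TGTTTAC, the letters TGTTTGC and the letters TGTTTAT. The CHR letters were in 31 of the 44 member windows (70.5%) and in 15.4% of the windows of all 27305 genes in the RefSeq table. Those 27305 were not limited to the genes tested here, whereas all 52 members were tested in both lines. CCAAT letters were in 32 member windows (72.7%) and in 35.7% of all windows, and both elements were in 23 member windows (52.3%) and in 6.08% of all. The E2F letters were in 12 member windows (27.3%) and in 11.2% of all. The forkhead letters, the kind of site FOXA1 binds, were in 2 member windows (4.55%, CDK1 and PRC1) and in 11% of all. The E2F and CCAAT letters overlapped in 1 member window and the CHR and CCAAT letters in 2. A match describes these letters only and does not show that a factor was bound. Sequence outside the windows and other forkhead letters were not searched, so the members are not shown to lack forkhead sites.

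The 120 bases before the start are shown, 5′ to 3′, for 3 members among the largest falls in both lines and for INCENP, which differed most between the lines. Capitals mark the CHR letters and the CCAAT box, on either strand. CDC20, PLK1 and INCENP hold both elements, and KIF20A holds 2 CCAAT boxes and no CHR letters in this stretch.
CDC20, chr1:43358861-43358980, plus strand: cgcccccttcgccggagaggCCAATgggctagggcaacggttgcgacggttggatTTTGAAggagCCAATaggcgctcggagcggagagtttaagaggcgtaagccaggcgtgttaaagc
PLK1, chr16:23678769-23678888, plus strand: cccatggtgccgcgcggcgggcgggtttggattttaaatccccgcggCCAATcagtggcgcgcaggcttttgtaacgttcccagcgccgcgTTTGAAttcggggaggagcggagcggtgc
KIF20A, chr5:138178992-138179111, plus strand: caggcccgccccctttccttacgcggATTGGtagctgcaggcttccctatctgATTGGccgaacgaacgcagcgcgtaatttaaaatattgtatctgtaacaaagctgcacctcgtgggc
INCENP, chr11:62123891-62124010, plus strand: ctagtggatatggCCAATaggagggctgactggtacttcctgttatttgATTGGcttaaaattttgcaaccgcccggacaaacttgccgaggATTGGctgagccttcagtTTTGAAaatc

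The 31 members with the CHR letters had a median log2 fold change of −0.62 in PC3 and −0.83 in VCaP, and the 13 without had −0.76 and −0.79. The 32 members with CCAAT letters had medians of −0.76 and −0.88, and the 12 without −0.58 and −0.67. CDC25B, CDC25C, KIF2C and CENPE had neither set of letters in the window used. Other start sites and variants of the letters were not searched, so these genes are not shown to lack the elements. No test was made of these differences.

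**Figure D3:**
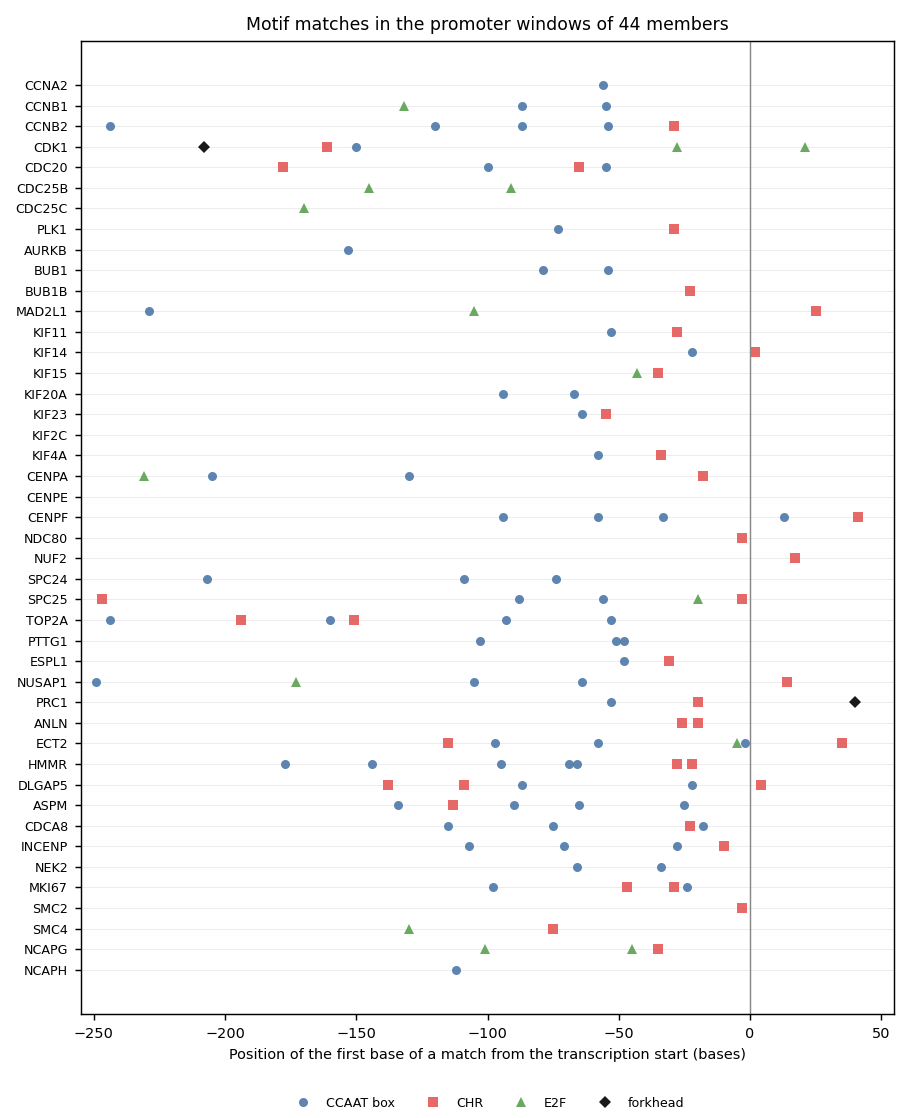
Position of each match to the CCAAT box (blue), CHR (red), E2F (green) and forkhead (black) letters, in bases from the transcription start, in the promoter windows of 44 members. Red squares start within 60 bases before the start in 19 members and 2 members have a black diamond.

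Cyclins, CDK1 and its activators were called lower in both lines for all 6 members. CCNB1, cyclin B1, read 47.2, 51.9 and 52 CPM in the NSI libraries of PC3 and 25.0, 26.2 and 26.8 in siFOXA1. The groups lay wide apart, and the log2 fold change was −0.95 (SE 0.084, adjusted p = 0.000118). In VCaP CCNB1 read 160, 148 and 149 CPM in NSI and 88.9, 82.1 and 62.1 in siFOXA1, a log2 fold change of −0.97 (adjusted p = 0.000144), so that the change was nearly equal in the 2 lines. CDK1, the kinase that cyclin B activates, read 59.7, 64.7 and 61.4 CPM in PC3 NSI and 39.9, 43.5 and 37.7 in siFOXA1. VCaP libraries gave 119, 111 and 106 CPM in NSI and 91.3, 74.7 and 63.3 in siFOXA1. Its log2 fold changes, −0.62 and −0.55, were smaller than those of CCNB1. CCNA2, cyclin A2, fell by 0.83 on the log2 scale in PC3 and by 1.11 in VCaP, and CCNB2, cyclin B2, by 0.93 and 0.76. The phosphatases CDC25B and CDC25C, which remove the inhibitory phosphates from CDK1, fell by 0.46 and 0.71 in PC3 and by 0.40 and 0.79 in VCaP, and CDC25B in VCaP lost its call without NSI replicate 1 (adjusted p = 0.0592) or 2.

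The kinases PLK1, AURKA and NEK2 had the lowest median of the 9 role groups in PC3, −1.02. PLK1, which acts from mitotic entry to cytokinesis, read 59.4, 59.2 and 62.0 CPM in PC3 NSI and 30.3, 29.9 and 28.9 in siFOXA1. These replicates differed little, and the log2 fold change was −1.02 (SE 0.078, adjusted p = 5.33e-05). In VCaP PLK1 read 32.9, 31.2 and 31.4 CPM in NSI and 16.0, 15.3 and 10.6 in siFOXA1, a log2 fold change of −1.19 (adjusted p = 8.76e-05). AURKA, which matures the spindle poles, lies on chromosome 20 (54944445 to 54967393, minus strand, GRCh37). It read 69.9, 70.0 and 69.3 CPM in PC3 NSI and 32.7, 31.3 and 32.6 in siFOXA1 (log2 fold change −1.11, adjusted p = 3.02e-05). In VCaP it read 93.4, 89.9 and 92.6 CPM in NSI and 51.7, 47.5 and 37.5 in siFOXA1 (log2 fold change −1.01). The pseudogene AURKAPS1, whose fragments the counting can divide with AURKA, held 0.756% to 5.46% of the AURKA count in these libraries. NEK2, a centrosome kinase, fell by 0.93 in PC3 and by 0.89 in VCaP on the same scale.

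Of the 4 genes of the anaphase-promoting complex pathway, 3 were called lower in PC3 and 4 in VCaP. CDC20, which activates the complex once the checkpoint is satisfied, read 38.2, 45.9 and 39.5 CPM in PC3 NSI and 21.1, 22.8 and 20.3 in siFOXA1 (log2 fold change −0.94, adjusted p = 0.000336). In VCaP CDC20 read 58.6, 48.8 and 51.3 CPM in NSI and 26.3, 26.3 and 18.0 in siFOXA1 (log2 fold change −1.17). CDC20 thus kept 52% of its NSI level in PC3 and 44.5% in VCaP. UBE2C, the ubiquitin-conjugating enzyme of the complex, fell by 0.90 and 0.96 in PC3 and VCaP, and PTTG1, securin, fell by 0.76 and 0.86. ESPL1, separase, the protease that securin holds back and that cuts cohesin, was the exception in PC3. It read 21.0, 19.6 and 19.6 CPM in PC3 NSI and 17.4, 18.1 and 19.2 in siFOXA1 (log2 fold change −0.14, adjusted p = 0.271). In VCaP ESPL1 read 117, 108 and 117 CPM in NSI and 65.8, 66.9 and 46.6 in siFOXA1 (log2 fold change −0.94, adjusted p = 0.000245).

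The chromosomal passenger complex corrects wrong attachments, and its subunits did not all move by the same amount. AURKB, its kinase, read 12.2, 18.0 and 13.1 CPM in PC3 NSI and 7.16, 9.50 and 7.73 in siFOXA1 (log2 fold change −0.83, adjusted p = 0.00783). In VCaP AURKB read 16.4, 15.5 and 18.4 CPM in NSI and 13.0, 12.4 and 10.8 in siFOXA1 (log2 fold change −0.47, adjusted p = 0.00325). CDCA8, borealin, had the most negative change of the members in VCaP. It read 53.5, 50.6 and 52.2 CPM in VCaP NSI and 25.5, 22.7 and 16.9 in siFOXA1 (log2 fold change −1.27, SE 0.13, adjusted p = 3.97e-05), and fell by 0.90 in PC3. BIRC5, survivin, fell by 0.81 in PC3 and by 0.80 in VCaP. INCENP, the scaffold of the complex, read 30.4, 23.7 and 29.6 CPM in PC3 NSI and 22.0, 20.6 and 25.2 in siFOXA1, and the groups overlapped (log2 fold change −0.30, adjusted p = 0.0978, and 0.00857 with the replicate block). In VCaP INCENP read 53.7, 51.3 and 51.0 CPM in NSI and 25.3, 26.0 and 20.3 in siFOXA1 (log2 fold change −1.13, adjusted p = 1.09e-05). AURKB in PC3 lost its call without siFOXA1 replicate 1 (adjusted p = 0.0545).

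The spindle checkpoint genes, which delay anaphase while kinetochores are unattached, were called lower for 5 of 5 members in each line. BUB1, a checkpoint kinase at the kinetochore, read 44, 38.7 and 43.2 CPM in PC3 NSI and 28.9, 26.6 and 28.5 in siFOXA1 (log2 fold change −0.58, adjusted p = 0.00203). In VCaP BUB1 read 98.7, 97.3 and 93.1 CPM in NSI and 60.6, 51.7 and 42.9 in siFOXA1 (log2 fold change −0.90, adjusted p = 0.00014). Neither pair of groups overlapped. BUB1B, whose product is part of the inhibitor that binds CDC20, fell by 0.82 and 0.77 in PC3 and VCaP, and TTK, the kinase that starts the signal, by 0.80 and 0.68. The smallest change of the group in PC3 was that of BUB3, −0.38, whose call ended without siFOXA1 replicate 1 (adjusted p = 0.0676), as did that of MAD2L1 (−0.55 with all libraries, adjusted p = 0.0733 without it).

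Spindle motors and assembly factors were called lower for 9 of 10 members in each line. KIF11, the motor that pushes the spindle poles apart, read 37.6, 34.2 and 35.2 CPM in PC3 NSI and 24.2, 22.4 and 23.0 in siFOXA1 (log2 fold change −0.62, adjusted p = 0.00113). In VCaP KIF11 read 106, 112 and 104 CPM in NSI and 84, 74.7 and 66.6 in siFOXA1 (log2 fold change −0.51, adjusted p = 0.000997). TPX2, which activates AURKA on the spindle, fell by 0.66 and 0.82 in PC3 and VCaP, and DLGAP5, a spindle assembly protein, by 0.93 and 0.98. The motors KIF2C, KIF4A, KIF14 and KIF15 and the microtubule bundler NUSAP1 fell by 0.47 to 0.74 in PC3 and by 0.65 to 0.98 in VCaP. HMMR was called lower in VCaP (−0.40, adjusted p = 0.0432), but its groups overlapped and its call ended in 5 of 13 alternative fits, among them those without NSI replicate 1 (0.112) or 2 (0.12) and those without siFOXA1 replicate 2 (0.0809) or 3 (0.0797). ASPM, a spindle pole protein, was the only member called in neither line. In PC3 it read 12.8, 8.48 and 12.5 CPM in NSI and 8.44, 6.49 and 8.42 in siFOXA1 (log2 fold change −0.53, adjusted p = 0.0536, and 0.00105 with the replicate block). In VCaP it read 217, 224 and 116 CPM in NSI and 152, 132 and 114 in siFOXA1 (−0.49, adjusted p = 0.099), and without NSI replicate 3 the change was −0.74 (adjusted p = 0.000958).

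The 6 cytokinesis genes were called lower in both lines. KIF20A, a motor of the spindle midzone that carries the passenger complex there, had the most negative change of the members in PC3. It read 34.9, 35.3 and 33.1 CPM in PC3 NSI and 15.5, 14.5 and 16.6 in siFOXA1, 45.1% of the NSI mean (log2 fold change −1.15, SE 0.088, adjusted p = 5.44e-05). In VCaP KIF20A read 267, 242 and 236 CPM in NSI and 143, 125 and 91.5 in siFOXA1 (log2 fold change −1.05, adjusted p = 0.000269). The midzone bundler PRC1 fell by 0.77 and 0.96, and KIF23, which forms centralspindlin with RACGAP1, by 0.87 and 0.83. RACGAP1 itself fell by 0.47 and 0.61, and ECT2, which centralspindlin recruits to activate RhoA, by 0.53 and 0.92. Of the exon bases of PRC1, 65.2% overlap another annotated gene on the same strand, which divides its counts. ANLN, a scaffold of the contractile ring, had the smallest change of the group in PC3, −0.35 (adjusted p = 0.0149), and its call ended without NSI replicate 1 or 3, or siFOXA1 replicate 1 (adjusted p from 0.0598 to 0.0759).

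The 8 centromere and outer kinetochore genes held more exceptions than any other role group: 5 were called lower in PC3 and 6 in VCaP. CENPA, the histone variant that marks the centromere, was called in both (log2 fold changes −0.95 and −0.83), as were NUF2 (−0.55 and −0.52) and SPC25 (−0.55 and −1.01), 2 subunits of the NDC80 complex that grips microtubules. SPC25 in PC3 lost its call without any 1 of the 6 libraries other than siFOXA1 replicate 2 (adjusted p up to 0.162). Its partner NDC80 read 15.5, 15.4 and 14.1 CPM in PC3 NSI and 13.1, 14 and 11.5 in siFOXA1 (log2 fold change −0.22, adjusted p = 0.147, and 0.032 with the replicate block), and fell by 0.72 in VCaP. SPC24 read 7.82, 14.7 and 8.57 CPM in PC3 NSI and 9.34, 11.1 and 9.55 in siFOXA1, with NSI replicate 2 above the other 5 libraries (log2 fold change −0.06, adjusted p = 0.872, and 0.33, adjusted p = 0.0611, without NSI replicate 2). In VCaP SPC24 fell by 0.45, and its call ended in 1 of 13 alternative fits (adjusted p = 0.0909). CENPM read 3.63, 5.70 and 3.71 CPM in PC3 NSI and 2.33, 3.70 and 2.70 in siFOXA1, with replicate 2 high in both groups (log2 fold change −0.58, adjusted p = 0.0872, and 0.00234 with the replicate block).

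CENPE, the kinetochore motor that brings chromosomes to the spindle equator, and CENPF, a large kinetochore protein, were called in PC3 (log2 fold changes −0.79 and −0.80) and not in VCaP. The PC3 call of CENPE ended in 1 of 13 alternative fits (adjusted p = 0.0568). In VCaP CENPE read 117, 121 and 43.4 CPM in NSI and 99.4, 78.1 and 59.3 in siFOXA1 (log2 fold change −0.25, SE 0.33, adjusted p = 0.578). CENPF read 280, 266 and 140 CPM in NSI and 178, 157 and 126 in siFOXA1 (log2 fold change −0.57, adjusted p = 0.0719). In both genes only NSI replicate 3 lay among or below the siFOXA1 values. Without that library the changes of CENPE and CENPF were −0.60 (adjusted p = 0.0251) and −0.83 (adjusted p = 0.00112). All 52 members were then called lower in VCaP, where 20.98% of all genes were. This was the highest count of the fits without single libraries, and leaving out NSI replicate 1 or 2 instead gave 46.

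Chromosome structure genes were called lower for 5 of 6 members in each line. TOP2A, the topoisomerase that untangles sister chromatids, read 125, 96.9 and 120 CPM in PC3 NSI and 67.2, 63.9 and 66.8 in siFOXA1 (log2 fold change −0.79, adjusted p = 0.00128). In VCaP it read 677, 672 and 643 CPM in NSI and 540, 489 and 411 in siFOXA1 (log2 fold change −0.47, adjusted p = 0.0039). Per kilobase of exon TOP2A was the most abundant member in VCaP NSI, at 115 ± 3.24 CPM per kb (SD, n = 3), ahead of KIF20A at 77.6 ± 5.19, whereas in PC3 NSI UBE2C led with 70.1 ± 5.81 and CDC25B followed with 52.5 ± 3.67. MKI67, the Ki-67 protein that coats mitotic chromosomes and is used to mark proliferating cells, read 147, 122 and 121 CPM in PC3 NSI and 79.6, 65.2 and 87.3 in siFOXA1 (log2 fold change −0.75, adjusted p = 0.00377). In VCaP MKI67 read 347, 336 and 285 CPM in NSI and 197, 184 and 163 in siFOXA1 (log2 fold change −0.83, adjusted p = 0.000113). The condensin subunits NCAPG and NCAPH fell by 0.61 and 0.65 in PC3 and by 0.91 and 0.72 in VCaP. Of the exon bases of NCAPG, 35% lie opposite another gene, LCORL. In PC3, where strand was ignored, reads of the 2 genes cannot be told apart there. The same holds for 31.5% of the exon bases of BIRC5, and for 27.4% of those of SMC4, which lie opposite IFT80 and TRIM59.

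The ATPase subunits of condensin, SMC2 and SMC4, moved less than NCAPG and NCAPH in both lines. SMC2 lies on chromosome 9 (106856541 to 106903698, plus strand, GRCh37) and was the only member with a positive log2 fold change in PC3, 0.08 (adjusted p = 0.557), with 28.9, 24.6 and 28.1 CPM in NSI and 29.1, 27.1 and 30.2 in siFOXA1. In VCaP it read 92.9, 94.8 and 87.2 CPM in NSI and 72.1, 62.8 and 58.4 in siFOXA1 (log2 fold change −0.51, adjusted p = 0.000824). SMC4 was called in PC3 (−0.42, adjusted p = 0.0294), and leaving out any 1 of the 6 libraries other than NSI replicate 2 ended that call (adjusted p from 0.059 to 0.0993). In VCaP SMC4 read 290, 306 and 227 CPM in NSI and 257, 237 and 222 in siFOXA1 (−0.20, adjusted p = 0.17), the smallest change of a member there, and −0.33 (adjusted p = 0.0113) without NSI replicate 3.

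**Figure D4:**
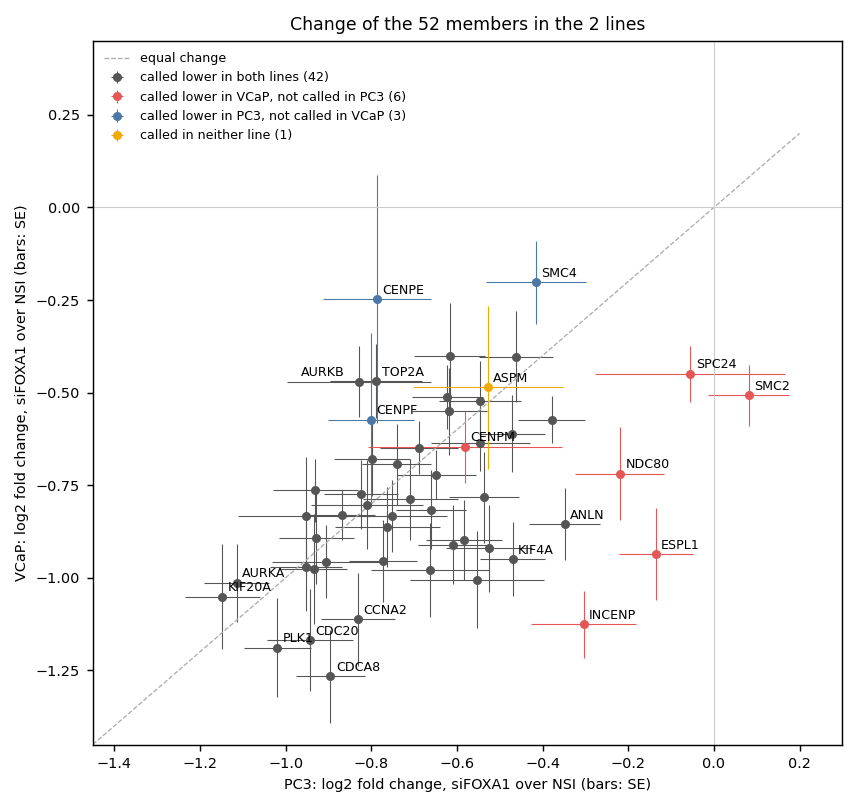
Log2 fold change of each of the 52 members in PC3 (x axis) and VCaP (y axis), siFOXA1 over NSI, with bars of 1 SE; the dashed line marks equal change, and color gives the calls in the 2 lines. Of the members, 51 lie left of 0 in PC3 and all 52 below 0 in VCaP, and INCENP, ESPL1 and SMC2 lie furthest below the dashed line.

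Across the 52 members the changes in the 2 lines had a rank correlation of 0.42 (Pearson's r 0.39), a description over genes that share libraries within each line. The difference between the lines was tested as the interaction in a fit of all 12 libraries (VCaP effect minus PC3 effect). It was called more negative in VCaP for 6 members (11.5%), where 11.1% of the 30450 genes tested were. In this fit the share of members was near that of all genes. The difference was called more positive for 0 members, where 11.1% of the genes tested were, and 22.1% were called either way. The 6 were INCENP (−0.84, SE 0.16, adjusted p = 0.00166), ESPL1 (−0.82, adjusted p = 0.00168), SMC2 (−0.60, adjusted p = 0.00394), ANLN (−0.52, adjusted p = 0.0118), NDC80 (−0.51, adjusted p = 0.0416) and KIF4A (−0.50, adjusted p = 0.0147), the last a motor that shapes the midzone. The most positive differences were those of CENPE (0.53, adjusted p = 0.395), AURKB (0.34, adjusted p = 0.265) and TOP2A (0.30, adjusted p = 0.197), none of them called. With the replicate block in both lines, 12 members were called more negative, adding KIF14, SPC25, ECT2, BUB1, NCAPG and CDCA8. Only 1 member, CENPE, was called more positive (adjusted p = 0.0342). With the block 13.96% of all genes tested were called more negative, and 4581 of 30450 more positive. Leaving out VCaP siFOXA1 replicate 1 instead gave 11 members called more negative, where 8.77% of all genes tested were. Without the block CENPE changed in VCaP by −0.25, and by −0.60 when NSI replicate 3 was left out, against −0.79 in PC3. The interaction call of NDC80 ended without any of 7 single libraries (adjusted p up to 0.101). FOXA1 itself was reduced further in VCaP, and a difference between lines cannot be told apart from dose, kit and medium.

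Other mitotic genes that are no members were examined in lists. Of 39 further spindle, centrosome and cytokinesis genes, 21 were called lower and 0 higher in PC3, and 30 lower and 1 higher in VCaP. PIMREG had the largest fall of that list in both lines (log2 fold changes −1.26 and −1.46). Of 36 further centromere, kinetochore and checkpoint genes, 17 were called lower in PC3, and 27 lower and 1 higher in VCaP. SKA1, of a complex that holds kinetochores to microtubules, fell by 1.22 in VCaP and by 0.52 in PC3, and OIP5, of the complex that loads CENPA, by 0.86 in PC3 (called in 12 of 13 alternative fits, the highest adjusted p being 0.0725). Without single libraries the PC3 counts of these lists ranged from 11 to 20 and from 7 to 16, against 39 to 46 for the members. All PC3 counts of lists stand against 13.9% of all genes called lower (23.1% with the replicate block and 5.635% without siFOXA1 replicate 1), and VCaP counts against 23.3%.

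Enzymes of mitotic entry and exit, cohesin with condensin, and the core anaphase-promoting complex had list medians nearer 0 than these in both lines (−0.19, −0.18 and −0.20 in PC3, and −0.38, −0.21 and −0.14 in VCaP). Of 24 entry and exit genes, 8 were called lower and 3 higher in PC3, and 16 lower and 1 higher of 22 tested in VCaP. Without single libraries the PC3 count was 3 to 7, lowest without siFOXA1 replicate 1 or 3. CKS2, a small partner of CDK1, fell by 0.89 in PC3, and HASPIN, the kinase that places the passenger complex on centromeres, fell by 1.13 in VCaP. The rises with the largest log2 fold changes were those of CCNB3 in PC3, from 0.207 to 0.485 CPM (called in 11 of 13 alternative fits), and of the phosphatase CDC14A in VCaP (1.25). Of 17 cohesin and condensin genes, 5 were called lower in PC3, led by NCAPD2 (−0.76), and 2 without siFOXA1 replicate 1. In VCaP 8 were lower and 3 higher, led by ESCO2 (−0.90) and ESCO1 (0.35). Of 18 genes of the anaphase-promoting complex, 3 (16.7%) were called lower in PC3, a share near that of all genes, 1 without siFOXA1 replicate 1 and 11 with the replicate block. In VCaP 6 were lower and 3 higher. Its E2 enzyme UBE2S fell in both lines (−0.87 and −1.11, called in 12 of 13 alternative fits in PC3), whereas the core subunit ANAPC4 rose in VCaP (1.12).

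The 38 genes of DNA replication, which act in S phase and are controlled by E2F factors, served as a comparison. In VCaP 37 of the 38 were called lower (median −0.70), led by the ribonucleotide reductase subunit RRM2, which read 125, 123 and 120 CPM in NSI and 29.8, 24.7 and 21.1 in siFOXA1 (log2 fold change −2.29). In PC3 3 were called lower, with MCM7 the largest called fall (−0.55), and 1 higher, GINS1 (0.45), and the median was −0.25. Both MCM7 and GINS1 were called in 8 of 13 alternative fits, and without siFOXA1 replicate 1 the list had 0 lower and 0 higher. With the replicate block 16 were lower and 2 higher in PC3, where the share of all genes called lower rose from 13.9% to 23.1%, and leaving out NSI replicate 2 brought the PC3 median to 0.02. The difference between the lines was called more negative in VCaP for 22 of the 38 replication genes (16 to 32 when single libraries were left out) and for 6 of the 52 members (5 to 11). In PC3 45 of 52 members and 3 of 38 replication genes were called lower, and 49 and 16 with the block. No test of the 2 lists against each other was made.

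**Figure D5:**
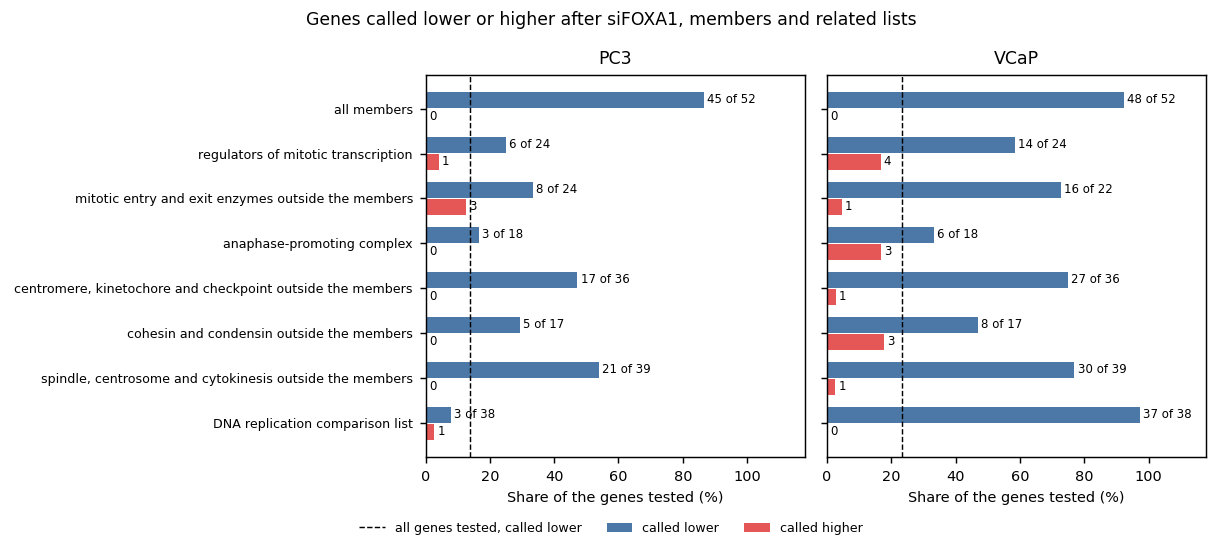
Share of the genes tested that were called lower (blue) or higher (red) after siFOXA1, in percent, for the 52 members and 7 lists of related genes, PC3 left and VCaP right; the dashed line is the share of all genes tested that was called lower (13.9% and 23.3%). The replication list stands at 3 of 38 in PC3 and at 37 of 38 in VCaP, and the members stand at 45 and 48 of 52.

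Transcription factors that control the members moved in part with them. FOXM1, which drives G2 and mitotic genes, read 64.5, 64.9 and 63.8 CPM in PC3 NSI and 39.2, 38.4 and 43.0 in siFOXA1 (log2 fold change −0.68, adjusted p = 0.00066). VCaP gave 124, 117 and 128 CPM in NSI and 63.6, 62.4 and 51.7 in siFOXA1 (log2 fold change −1.06, adjusted p = 1.16e-05). MYBL2, which joins the MuvB complex in dividing cells, fell by 0.82 in PC3 (adjusted p = 0.0111, called in 12 of 13 alternative fits, the highest adjusted p being 0.0688) and by 1.13 in VCaP (adjusted p = 7.28e-05). Both genes are themselves transcribed in proliferating cells.

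By the interaction test the change was called more negative in VCaP for 10 of the 24 regulators and more positive for 4. Of all genes tested, 11.1% were called more negative and 11.1% more positive. Among the regulators called were E2F1 (−0.88, adjusted p = 0.0206), E2F8 (−2.43, adjusted p = 1.58e-07) and CDKN1A (1.42, adjusted p = 0.000362). For LIN9 and RBL2 the difference was not called (adjusted p = 0.384 and 0.483). E2F1, an activator of S phase genes, read 6.85, 13.2 and 7.65 CPM in PC3 NSI and 10.4, 13.0 and 11.4 in siFOXA1 (log2 fold change 0.33, adjusted p = 0.318, and 0.0314 with the replicate block), and fell by 0.54 in VCaP. E2F8, a repressor of the E2F family, rose in PC3 from 3.49, 3.98 and 2.99 CPM to 11.4, 11 and 12.0 (log2 fold change 1.72, adjusted p = 4.26e-05) and fell by 0.70 in VCaP. LIN9, a MuvB subunit, had a log2 fold change of −0.32 in PC3 (adjusted p = 0.0507, and 0.0145 with the block) and fell by 0.49 in VCaP. RBL2, the pocket protein of the DREAM complex, had 0.10 in PC3 (adjusted p = 0.53) and rose by 0.26 in VCaP (adjusted p = 0.00775). CDKN1A, the CDK inhibitor p21, read 26.6, 19.6 and 30.2 CPM in PC3 NSI and 30.0, 28.8 and 29.1 in siFOXA1, with overlap between the groups. In VCaP CDKN1A rose from 42.9, 29.8 and 28.6 CPM to 116, 111 and 87.3 (log2 fold change 1.64, adjusted p = 3.92e-05), and E2F2 had the largest fall of the list (−1.29). In all, 6 of the 24 regulators were called lower and 1 higher in PC3, and 14 lower and 4 higher in VCaP, where 13.9% and 23.3% of all genes were called lower. The PC3 counts were 2 to 6 lower and 1 to 3 higher without single libraries, lowest without siFOXA1 replicate 1, and 9 lower and 4 higher with the block. The part of these regulators in the change of the members was not tested.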

How the data were processed

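Per the file headers, the authors made the deposited estimated counts with featureCounts 2.0.0 (GENCODE v28lift37 basic, GRCh37), dividing fragments that matched several places or genes. PC3 counts ignored strand and VCaP counts were reverse-stranded, per the file headers. STAR 2.7.3a aligned the reads, per the submitters' processing notes. Here the expected counts were rounded and fitted per line with edgeR 4.0.16 (TMM, filterByExpr, quasi-likelihood test, two-sided), and the interaction over all 12 libraries. Adjusted p-values are Benjamini-Hochberg over all genes tested, and CPM is TMM-scaled within a line. The fit was tested on simulated data. DESeq2 1.42.0 size factors and test, library size alone, no filter, a replicate block, all 12 libraries and leaving out each library were tried. Promoters are RefSeq windows (GRCh38.p14), and exon GC content was read from GRCh37.

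Members and lists were chosen with earlier results of these data known. Named genes were FOXA1, 10 core members, the 6 most negative and 2 most positive members per line, members not called, the 3 extreme interaction members each way, 6 regulators and each list's largest called changes. Other members are named as examples of their role.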

Additional observations from a re-analysis of the deposited data

Results flagged for a closer look

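In 3 genes the knockdown effect differed between the lines by the interaction test and lay furthest below 0: INCENP (−0.84, VCaP effect minus PC3 effect, log2), ESPL1 (−0.82) and SMC2 (−0.60). Their calls held in all 18 alternative fits of the interaction. INCENP changed by −0.30 in PC3 and by −1.13 in VCaP, ESPL1 by −0.14 and −0.94, and SMC2 by 0.08 and −0.51. Line cannot be told apart from siRNA dose, library kit and medium here.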

How the results depend on the processing

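PC3 calls of members as lower ranged from 39 to 49 of 52 and VCaP calls from 46 to 52 over the alternatives, with 0 called higher in each. The share of all PC3 genes called (27.7%) was 16.2% with no filter, 42.8% with the replicate block, 13.6% at an adjusted p under 0.01, and 14.7% to 27.9% without single libraries. In VCaP (45.8%) it was 28% in the fit of all 12 libraries and 24.5% with no filter. For the interaction (22.1%) it was 12.2% with no filter and 13.6% at the stricter threshold. There, 6 members called more negative became 12 with the replicate block, 3 at the stricter threshold and 5 to 11 without single libraries. Of all genes tested, 11.1% were called more negative in the main fit and 13.96% with the block. Without single libraries that share was 8.37% to 13.35%, and 8.77% in the fit that gave 11 members. With the block 1 member was called more positive, where 4581 of 30450 genes were. The summed level of the members in PC3 (64.0% of NSI) was 68.1% with library size alone. SPC24 in PC3 (−0.06) was 0.03 with library size alone and −0.21 to 0.33 without single libraries. Of the 7344 PC3 calls of all genes 3675 were higher, and 64.3% were with library size alone. The block changed no call of a member in PC3 other than the 4 gained. VCaP samples share only a number, and there the block gave 50 calls. Rounding counts midway between whole numbers to the even one, chosen after seeing the data, left the members' counts at 45 and 48. In PC3 that rounding moved the share of all genes called lower from 13.86% to 12.08%, and 55.3% of the calls were then higher. The PC3 counts called lower moved from 21 to 18 in the spindle list and from 17 to 15 in the centromere list. The regulators moved from 6 lower and 1 higher to 5 and 3. Precision rests on 3 libraries per group.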
